A study of Arabidopsis thaliana with 24 samples.

Results

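ERECTA (ER) and 7 other genes of stomatal development were followed in Arabidopsis thaliana leaves after infiltration with flg22, a peptide of bacterial flagellin that plants perceive through a receptor kinase as a sign of infection. The 8 genes were picked by locus, each has 1 probe set that matches 1 gene, and they make up 8 of the 22746 probe sets tested. They are the receptor kinases ER (AT2G26330), ERL1 (AT5G62230) and ERL2 (AT5G07180), the receptor-like protein TMM (AT1G80080), the protease SDD1 (AT1G04110), the kinase YDA (AT1G63700), and the transcription factors SPCH (AT5G53210) and FAMA (AT3G24140). Leaves of soil-grown plants aged 6 weeks, kept in short days, received 1 µM flg22 or water and were collected 4 h later. RNA levels were read on Affymetrix ATH1 arrays, which give 1 linear signal, in scaled units, per probe set and array.

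Wild-type Col-0 plants, erf104 and mpk6 knockouts, and plants of the line 35S::ERF104 were each sampled under water and under flg22, with 3 arrays in each of the 8 groups. ERF104 is an ethylene response factor and MPK6 a mitogen-activated protein kinase. The 35S promoter drives ERF104 in most tissues at all times, so 35S::ERF104 leaves had raised ERF104 before any treatment. The labels used here do not state the alleles, how many transgenic lines there were or how many plants stand behind each array. Nothing says that the arrays of a group came from separate plants, so p-values measure the spread between these arrays. ERF104 was at least 95-fold higher in 35S::ERF104 than in Col-0 under water (limma, Benjamini-Hochberg adjusted p 7.75e-10). MPK6 signals in mpk6 under water were 316, 263 and 465, all below the 1163, 1526 and 724 of Col-0. This arrangement was shared by 10.8% of all probe sets. As a description, MPK6 in mpk6 was 2.04-fold higher under flg22 than under water with no overlap, as for 9.46% of all probe sets. What the MPK6 probe set reads in mpk6 was not tested.

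Across probe sets, the array of erf104 flg22 replicate 2 had correlations of at most 0.25 with the rest, and the authors' own group values omit it. It is omitted here too, so that erf104 flg22 has 2 arrays and the results rest on 23 arrays. The trimmed mean was 500.03 to 500.06 scaled units on the arrays used, while the array medians ran from 133 in 35S::ERF104 flg22 replicate 3 to 302 in Col-0 water replicate 3. Probe sets called present or marginal on all arrays of a group numbered 8317 to 12412 in the mutant and transgenic groups. Col-0 had fewer, with 2572 under water and 5659 under flg22. Low signals were therefore measured least well in the wild type. Of the 24 arrays, Col-0 flg22 replicate 3 correlated best with mpk6 flg22 replicate 3 (0.926), and Col-0 water replicate 2 with mpk6 water replicate 2 (0.890), both more closely than with any array of their own group. Other arrays also had their best partner outside their group, among them those of 35S::ERF104 water and the erf104 flg22 arrays used.

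Stomata are pores framed by a pair of guard cells, which arise in the young leaf epidermis through a lineage of asymmetric divisions. Small secreted peptides of the EPF family bind the ER family receptor kinases, which act with TMM. The signal passes through YDA and the kinases MKK4, MKK5, MPK3 and MPK6 and restrains SPCH, which starts the lineage. MUTE and FAMA act after SPCH, each together with ICE1 (also called SCRM) or SCRM2, and FAMA ends the divisions and sets guard cell fate. EPFL9 (stomagen) is made in the mesophyll and opposes the restraining peptides at the same receptors. ER also shapes organ growth, and the kinases from MKK4 to MPK6 serve immune signalling as well. In whole leaves, fewer cells of a type and less RNA per cell cannot be told apart.

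ER was the one member whose arrays were lower under flg22 than under water, with no overlap, in all 4 genotypes. Of all probe sets, 2.48% did this, a share that cannot gauge ER, which was picked for its fall in Col-0 and mpk6. Taken singly, 10.9% of all probe sets did so in Col-0 and 10.2% in mpk6, and 22.2% in erf104 and 19.7% in 35S::ERF104. ER had entered the list because of its fall in Col-0 and mpk6, so those responses are described with no test, as is every comparison of ER with Col-0, and the responses in erf104 and 35S::ERF104 were tested.

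In Col-0, ER signals were 779.9, 418 and 619 under water and 37.8, 16.3 and 135 under flg22. In mpk6 they were 454, 297 and 400.4 under water and 15.3, 11.8 and 110.4 under flg22. Under flg22, replicates 1 and 2 of both genotypes were far below replicate 3.

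In erf104, ER signals were 729, 534 and 377 under water and 166 and 103 on the 2 flg22 arrays. In 35S::ERF104 they were 429.9, 300.3 and 545 under water and 150.1, 137 and 162 under flg22. All 5 flg22 arrays of these lines stood between 103 and 166, close to replicate 3 of Col-0 and mpk6.

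**Figure D1:**
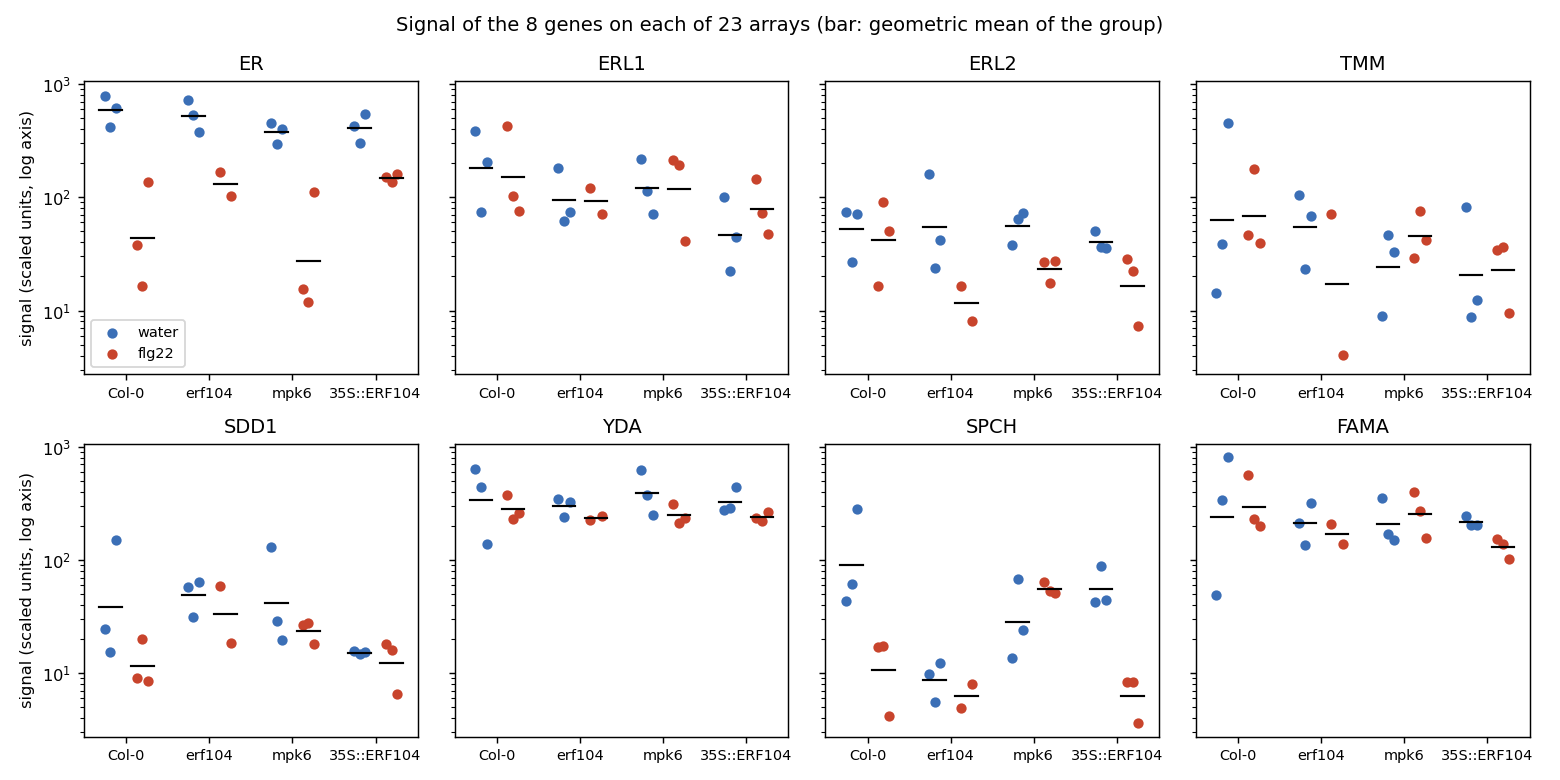
Signal of each of the 8 genes on each of the 23 arrays (log axis, scaled units) by genotype, with water in blue, flg22 in red and a bar at the geometric mean of each group. ER, picked for its fall in Col-0 and mpk6, is the one gene whose red points lie below the blue points in all 4 genotypes. TMM, SDD1 and SPCH scatter widely at low signal.

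Ordered by mean signal (mean ± SD), ER was highest in Col-0 water, at 606 ± 181 (n = 3), then erf104 water, at 546 ± 176 (n = 3). It was 425 ± 123 (n = 3) in 35S::ERF104 water and 384 ± 79.6 (n = 3) in mpk6 water. The 4 flg22 groups followed, with 149.6 ± 12.7 (n = 3) in 35S::ERF104, 135 ± 44.9 (n = 2) in erf104, 63.1 ± 63.4 (n = 3) in Col-0 and 45.8 ± 55.9 (n = 3) in mpk6. Neighbours in this order overlapped in their arrays except at the step from mpk6 water, whose lowest array was 297, to 35S::ERF104 flg22, whose highest was 162.

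ER fell in both lines in which its response was tested. The log2 change was −2.01 ± 0.343 (SE of the fit) in erf104, a 4.03-fold decrease (limma, Benjamini-Hochberg adjusted p 0.00517). In 35S::ERF104 it was −1.47 ± 0.246, a 2.77-fold decrease (limma, Benjamini-Hochberg adjusted p 0.002). Of all probe sets, 5.35% fell in erf104 and 10.4% in 35S::ERF104. The erf104 call depended on flg22 replicate 3: without it the change was −1.66 and the call was lost. Without replicate 1 the change was −2.36. Each of these fits leaves 1 flg22 array in erf104. With all 24 arrays the change was −1.24 (limma, Benjamini-Hochberg adjusted p 0.674). In 1 fit of all 23 arrays neither line passed, with limma adjusted p 0.190 in erf104 and 0.333 in 35S::ERF104.

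Described in the same terms, the log2 difference between flg22 and water for ER was −3.75 in Col-0 and −3.80 in mpk6. ER was called absent on the Col-0 flg22 arrays, and counted as a bound it was at least 3.63-fold lower there than under water. On the Col-0 water arrays ER had calls of both present and absent, and the bound takes those water signals as measured. The log2 difference in Col-0 is therefore that of measured signals, called absent on all flg22 arrays and in part under water, and not the size of a change. In mpk6 under flg22, ER was called marginal on some arrays and absent on others. Against the mean of its own water group, ER was 3.43-fold lower on mpk6 flg22 replicate 3, 3.17-fold and 5.13-fold lower on the erf104 arrays, and 2.55-fold to 3.02-fold lower on the 35S::ERF104 arrays. The deep values of Col-0 and mpk6 came from replicates 1 and 2 of each, and replicate 3 of each, at 135 and 110.4, lay within the range of the other lines.

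Those 4 arrays also measured low signals least well among the flg22 arrays. The lowest signal among probe sets called present on all arrays of the group was 278 and 113 on Col-0 flg22 replicates 1 and 2 and 58.7 on replicate 3. For mpk6 flg22 it was 111 and 69.0 on replicates 1 and 2 and 30.9 on replicate 3. ER was below this lowest detected signal on replicates 1 and 2 of each genotype and above it on replicate 3. Array medians were 258 and 190 on Col-0 flg22 replicates 1 and 2 and 197 and 167 on those of mpk6, against 133 to 152 on all other flg22 arrays used. The part of this difference between arrays in the ER values was not tested.

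**Figure D2:**
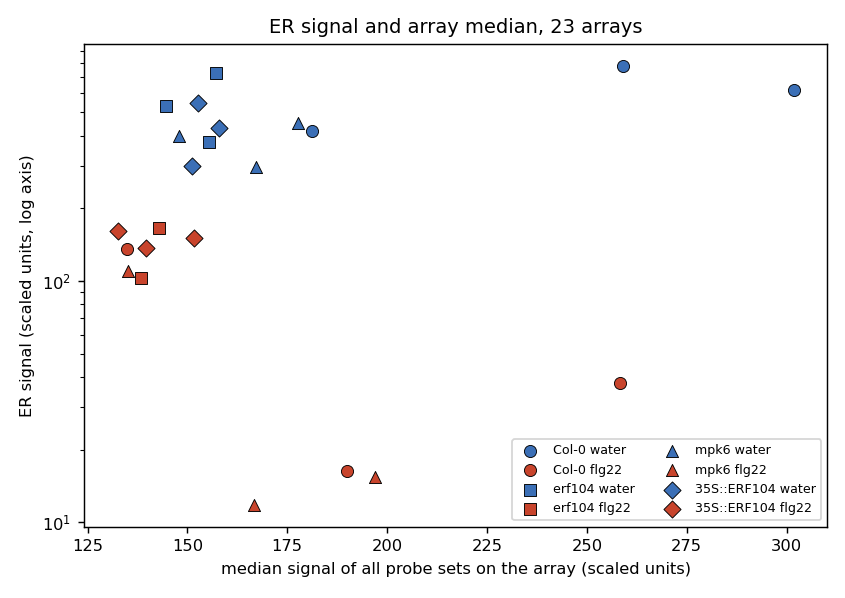
ER signal (log axis, scaled units) against the median signal of all probe sets on the same array, for 23 arrays, with colour for treatment and symbol for genotype. The 4 flg22 arrays with ER at 11.8 to 37.8 have medians of 167 to 258, and the other 7 flg22 arrays sit together at medians of 133 to 152 and ER signals of 103 to 166.

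The ER response less that of Col-0 was 2.28 log2 units in 35S::ERF104, 1.74 in erf104 and −0.05 in mpk6. ER was picked for its fall in Col-0 and mpk6, so these differences are given with no test, and with ER called absent in Col-0 flg22 they are not sizes of a change. For the other members the difference between responses was tested, and none passed by limma in any of the 3 comparisons, in which 0% of all probe sets were called. Unadjusted p-values under 0.05 were held by 1393, 1615 and 1531 probe sets for erf104, mpk6 and 35S::ERF104, and among the members other than ER by SPCH in mpk6 alone. A p that misses the threshold does not show that the responses were alike.

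Under flg22, ER was higher on every 35S::ERF104 array (137 to 162) than on every Col-0 array (16.3 to 135), an arrangement that 7.18% of all probe sets shared. The difference in measured signal was 1.77 log2 units. It too draws on the Col-0 arrays for which ER was picked and is given with no test. Under water the ER arrays of each line overlapped those of Col-0, with a log2 difference of −0.63 for mpk6, −0.51 for 35S::ERF104 and −0.15 for erf104.

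ERL1 and ERL2 are close relatives of ER that share its role in stomatal patterning. ERL1 ranged from 22.3 in 35S::ERF104 water replicate 2 to 427 in Col-0 flg22 replicate 1. Its arrays overlapped between treatments in each genotype, and the log2 changes were −0.03 in erf104 and 0.77 in 35S::ERF104 (limma, Benjamini-Hochberg adjusted p 0.988 and 0.506). In Col-0 and mpk6 the described differences were −0.27 and −0.02. The interval in erf104 ran from −1.38 to 1.33, and the ER estimate in that line lay outside it. The ER interval there, −2.77 to −1.25, overlapped that of ERL1, and the difference between the 2 genes was not tested.

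ERL1 under water was 101, 22.3 and 44.6 in 35S::ERF104 and 387, 74.2 and 204 in Col-0, where it was called absent. The groups overlapped, and the log2 difference of −1.96 did not pass (limma, Benjamini-Hochberg adjusted p 0.120). It passed without Col-0 water replicate 2, the lowest of the Col-0 arrays (−2.60; limma adjusted p 0.043). Without that array 4100 of 22746 probe sets were called, 2728 of them lower in 35S::ERF104, against 1332 and 800 in the main fit. The median probe set differed by −0.60 without it and by −0.48 in the main fit, so the call came with many others.

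ERL2 was called absent in all 8 groups, and its signals ran from 7.24 to 161. Its flg22 arrays were below its water arrays in erf104, mpk6 and 35S::ERF104, the same arrangement as that whose share of all probe sets is given for ER. Neither tested response passed (limma, Benjamini-Hochberg adjusted p 0.260 in erf104 and 0.323 in 35S::ERF104). Since both groups were called absent, no size is given.

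TMM, a receptor-like protein without a kinase domain that pairs with the ER family, ran from 4.09 on erf104 flg22 replicate 3 to 452 on Col-0 water replicate 3, and was called absent in 4 groups. Arrays of 1 group differed widely: in Col-0 water they were 14.4, 38.8 and 452. Water and flg22 overlapped in all 4 genotypes, and neither tested response passed (limma, Benjamini-Hochberg adjusted p 0.500 in erf104 and 0.952 in 35S::ERF104).

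SDD1, a subtilisin-like protease that lowers stomatal density, was called absent in all 8 groups. Its signals ran from 6.53 to 150.1, and water and flg22 overlapped in every genotype. It passed in no comparison tested.

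YDA, the kinase kinase kinase at the head of the cascade, was the steadiest member, with a span of 0.73 log2 units between its lowest and highest group mean. In 35S::ERF104 it was 279, 289.5 and 439 under water and 234, 219.9 and 264 under flg22. The groups did not overlap there, as for 19.7% of all probe sets, and the change of −0.46 ± 0.222 did not pass (limma, Benjamini-Hochberg adjusted p 0.208). In the other genotypes the treatments overlapped, and the log2 difference was −0.26 for Col-0, −0.35 for erf104 and −0.64 for mpk6. The interval in erf104 (−0.99 to 0.29) lay wholly above the change of ER in that line, and the difference between the genes was not tested.

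SPCH, the basic helix-loop-helix factor that starts the lineage, was called absent in all 8 groups, so its values bound no size. In 35S::ERF104 it was 42.7, 88.4 and 44.1 under water and 8.41, 8.36 and 3.6 under flg22. The groups did not overlap, as for 19.7% of all probe sets. The response passed (limma, Benjamini-Hochberg adjusted p 0.0221), though both groups lay at signals called absent. The call was lost when any 1 of the water arrays or flg22 replicate 3 was left out (adjusted p 0.052 to 0.086).

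Under water, SPCH was 9.93, 5.61 and 12.2 in erf104 and 43.3, 60.9 and 282 in Col-0, again with no overlap, as for 18.9% of all probe sets. This difference passed too (limma, Benjamini-Hochberg adjusted p 0.0419), where 6.3% of all probe sets were called and the median probe set differed by −0.51. It was lost without any 1 of these arrays other than Col-0 water replicate 2 (adjusted p 0.066 to 0.140), and under quantile normalization (adjusted p 0.099). In mpk6, SPCH was 13.7, 67.7 and 24.3 under water and 64.5, 53.4 and 50.6 under flg22, which overlap.

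FAMA, which ends the divisions and gives guard cells their fate, was called present on all arrays in 5 groups. In 35S::ERF104 it was 245, 202 and 203 under water and 152, 139 and 102 under flg22. The groups did not overlap, as for 19.7% of all probe sets, and the change of −0.74 ± 0.265 did not pass (limma, Benjamini-Hochberg adjusted p 0.085). It passed where only probe sets with a present or marginal call entered the test (limma adjusted p 0.0424), a setting under which SPCH is not tested. In that setting 4533 of the 15445 probe sets tested were called, against 4177 of 22746 without the filter. In erf104 the arrays overlapped, at 214, 136 and 320.1 under water and 207 and 138 under flg22. In Col-0 the water arrays alone ran from 49.2 to 811.

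**Figure D3:**
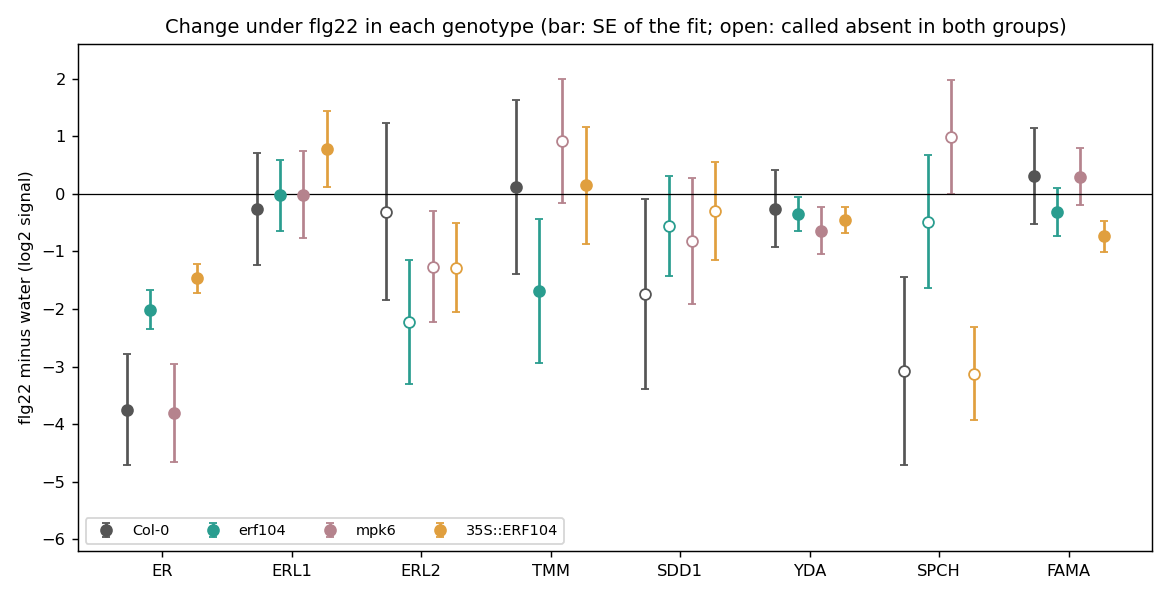
Difference between flg22 and water (log2 signal) for each of the 8 genes in each genotype, with bars for the SE of the fit and open symbols where both groups were called absent. ER is at −1.47 to −3.80 in the 4 genotypes, and the Col-0 and mpk6 values are shown as a description with no test.

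In all, 1 of 8 members passed in the erf104 response, 2 of 8 in the 35S::ERF104 response and 1 of 8 in erf104 against Col-0 under water. Of all probe sets, 9.71%, 18.4% and 6.3% passed in these comparisons. The median member change was −0.52 in erf104 and −0.60 in 35S::ERF104, beside −0.08 and −0.11 over all probe sets. In the other 10 comparisons fitted, none of the members passed by limma, with ER not read as a test in the 8 that involve Col-0. At an unadjusted p under 0.05 at most 1 member did in each of these, and 715 and 796 probe sets did for 35S::ERF104 against erf104 under water and flg22. Under flg22, 0.0132% of all probe sets differed between erf104 and Col-0, 0% between mpk6 and Col-0, and 0.44% between 35S::ERF104 and Col-0. Under water, 0.0044% differed between mpk6 and Col-0, and 5.86% between 35S::ERF104 and Col-0. Between 35S::ERF104 and erf104, 0.022% differed under water and 0.0879% under flg22. In mpk6 against Col-0 under flg22, 1121 probe sets had an unadjusted p under 0.05.

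Of 42 other genes of the pathway, 32 had a probe set that matches 1 gene. In erf104, 3 rose and 3 fell under flg22, where 4.36% of all probe sets rose and 5.35% fell. In 35S::ERF104, 6 rose and 3 fell, where 7.98% rose and 10.4% fell. Pathway genes called absent in both groups numbered 13 and 9. The median change of the 32 was −0.0039 in erf104 and −0.25 in 35S::ERF104, beside −0.08 and −0.11 over all probe sets.

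Among the ligands, EPFL9 was lower under flg22 in all 4 genotypes with no overlap, which held for 1 of the 32 genes and for 2.48% of all probe sets, a similar share. It was 1191, 922 and 711 under water and 201 and 217 under flg22 in erf104, and 781, 935 and 1123 under water and 158, 144 and 152 under flg22 in 35S::ERF104. EPFL9 fell at least 4.41-fold in erf104, where it was called absent under flg22 (limma, Benjamini-Hochberg adjusted p 0.000972). In 35S::ERF104 it fell 6.19-fold (log2 change −2.63 ± 0.179; limma, Benjamini-Hochberg adjusted p 1.63e-05).

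EPFL9 in Col-0 was 1266, 648 and 669 under water and 206, 289.9 and 175 under flg22, and in mpk6 768, 617 and 746 under water and 247, 96.4 and 133 under flg22. As a description, it was at least 3.39-fold lower in Col-0 and at least 4.82-fold lower in mpk6. Its flg22 arrays ran from 96.4 in mpk6 to 289.9 in Col-0. None of the 3 tests of its response against that of Col-0 passed, with differences of −0.24, −0.36 and −0.73 log2 units for erf104, mpk6 and 35S::ERF104 (limma, Benjamini-Hochberg adjusted p 0.818 to 0.959).

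The restraining peptide genes EPF1 and EPF2 passed in neither line. EPF1 ran from 27.7 to 428 and EPF2 from 5.23 to 406 over the 23 arrays, with the highest arrays of both in Col-0 water replicate 1.

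Of the 7 transcription genes, 2 fell in both lines, namely SCRM2 and ICE1, the partners of SPCH, MUTE and FAMA. Among all probe sets, 5.35% fell in erf104 and 10.4% in 35S::ERF104. SCRM2 was 382, 294 and 405 under water and 172 and 155 under flg22 in erf104, and 440.1, 354 and 336 under water and 175, 196 and 134 under flg22 in 35S::ERF104. The log2 changes were −1.13 ± 0.289 and −1.17 ± 0.224 (limma, Benjamini-Hochberg adjusted p 0.0336 and 0.00422). The flg22 arrays lay below the water arrays with no overlap in both lines and in mpk6. The same held for 22.2% of all probe sets in erf104, 19.7% in 35S::ERF104 and 10.2% in mpk6. In Col-0 the water array of replicate 3 (118) lay among the flg22 arrays (80.7 to 167).

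ICE1 changed by −0.81 ± 0.221 in erf104 and −0.64 ± 0.18 in 35S::ERF104 (limma, Benjamini-Hochberg adjusted p 0.0438 and 0.0311). In mpk6 its arrays overlapped, at 558 to 668 under water and 384 to 655 under flg22. In erf104 the SCRM2 call was lost without any 1 of its 5 arrays and the ICE1 call without any but water replicate 1. In 35S::ERF104 the SCRM2 call held without each array in turn, and the ICE1 call was lost without flg22 replicate 2 or 3 or water replicate 1 or 3. MUTE, the factor between SPCH and FAMA, stayed between 2.39 and 116 and passed in neither line.

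Of the 7 cascade genes, 2 rose in erf104 and 4 in 35S::ERF104, and none fell by limma in either. Among all probe sets, 4.36% rose in erf104 and 7.98% in 35S::ERF104. Of the 3 coreceptor genes measured, 1 rose in both lines, namely BAK1. BAK1, a coreceptor of both ER family and immune receptors, rose in erf104 from 980.3, 761 and 1413 to 2741 and 3194, and in 35S::ERF104 from 1074, 1311 and 1249 to 2254, 2632 and 2840.0. The log2 changes were 1.54 ± 0.254 and 1.09 ± 0.133 (limma, Benjamini-Hochberg adjusted p 0.00456 and 0.000339). MKK5 rose by 1.01 and 0.86 and MPK6 by 1.06 and 0.49 log2 units in erf104 and 35S::ERF104 (limma, Benjamini-Hochberg adjusted p 0.00353 to 0.0279). In 35S::ERF104, MKK4 rose by 1.41, MPK3 by 0.99 and AGB1, a G protein subunit, by 0.55 (limma, Benjamini-Hochberg adjusted p 0.00153 to 0.0284). Leaving out 1 array kept the 35S::ERF104 calls of BAK1, MKK4 and MKK5, and lost those of MPK3, MPK6 and AGB1 for at least 1 array. In erf104 the BAK1 call was lost without flg22 replicate 3, and those of MKK5 and MPK6 without either flg22 array or water replicate 2.

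MKK4, a kinase below YDA, was also the pathway gene that differed from Col-0 under water. It was 203, 139.5 and 98 in Col-0, where it was called absent, against 296, 311 and 459.8 in erf104 and 317, 418 and 612 in 35S::ERF104. The arrays of both lines were above those of Col-0, as for 7.84% and 9.34% of all probe sets. MKK4 was at least 1.42-fold higher in erf104 and at least 1.76-fold higher in 35S::ERF104 (limma, Benjamini-Hochberg adjusted p 0.0381 and 0.024), where 2.75% and 2.34% of all probe sets were called higher. The erf104 call was lost without any 1 of its arrays or without Col-0 water replicate 1 or 3, and that of 35S::ERF104 without its replicate 2 or 3.

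**Figure D4:**
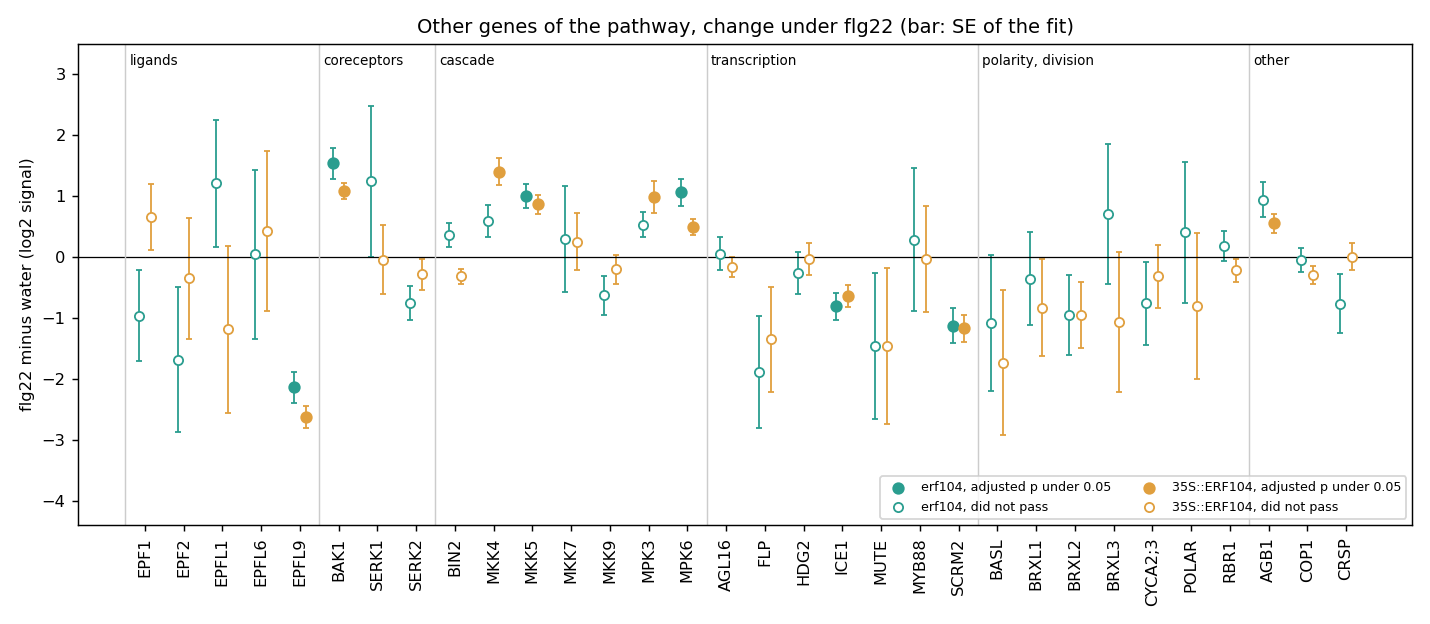
Change under flg22 (log2 signal) of the 32 other pathway genes in erf104 and 35S::ERF104, grouped by role, with bars for the SE of the fit and filled symbols for an adjusted p under 0.05. EPFL9 lies lowest of the filled symbols in both lines, SCRM2 and ICE1 lie below 0, and the filled symbols of BAK1 and of the cascade genes that passed lie above 0.

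Markers of leaf cell types gave the following beside the fall of ER and EPFL9. Of 10 guard cell genes, 8 were measured. None passed in erf104 by limma, and 1 fell in 35S::ERF104, namely OST1 (−0.55; limma, Benjamini-Hochberg adjusted p 0.0467), the kinase that closes stomata under abscisic acid. Of all probe sets, 10.4% fell in that response, which is near the 1 of 8 of the guard cell list. HT1 and SCAP1 were called absent in all groups. The summed signal of the 8 was 1187 to 1483 under water and 951 to 1026 under flg22 in 35S::ERF104, and 1050.0 to 1400.2 and 1026 to 1093 in erf104. In Col-0 it was 1742 to 2936 and 814 to 1243. There, 1 of the 8 genes was called present or marginal on all water arrays and 0 on all flg22 arrays. In each Col-0 group 3 were called absent. In mpk6 the treatments overlapped, at 1181 to 1710 under water and 860 to 1517 under flg22.

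Of 5 epidermis genes, 1 fell in 35S::ERF104, the wax gene CER1 (−0.80; limma, Benjamini-Hochberg adjusted p 0.0132), where 10.4% of all probe sets fell. Their summed signal overlapped between treatments there (9809 to 10265 and 9838 to 11917). Both measured mesophyll genes, LHCA1 and LHCA3 of photosystem I, fell in 35S::ERF104 (−0.81 and −0.84; limma, Benjamini-Hochberg adjusted p 0.0131 and 0.0273). None of the epidermis and mesophyll genes passed in erf104 by limma. None of the 4 vascular genes and of the 5 genes of dividing cells passed in these responses, and the trichome genes GL1 and GL2 were called absent in every group. The part of the guard cell, epidermis and mesophyll values in the change of ER or EPFL9 was not tested.

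The other members were little like ER over the 8 group means of log2 signal. Pearson's r with ER was 0.65 for YDA, 0.52 for SDD1, 0.49 for ERL2, 0.17 for SPCH, −0.15 for TMM, −0.20 for ERL1 and −0.25 for FAMA, while EPFL9 had 0.87. These are descriptions over 8 groups that share treatments and arrays. Among 17805 probe sets that match 1 gene and span at least 1 log2 unit, the 5 most like ER were AT4G03150 (r 0.993), AT1G73240 (0.992), AT2G18940 (0.986), AT2G38465 (0.985) and AT3G28760 (0.985), which carry no symbol in the RefSeq gene table. AT4G03150, as an example, differed between flg22 and water by −2.23 in Col-0 and −2.71 in mpk6, and by −1.21 in erf104 and −1.19 in 35S::ERF104. All 5 shared with ER the larger differences in Col-0 and mpk6 and the smaller ones in the other 2 lines, the trait for which they were picked, whereas EPFL9 was lowest in mpk6 and 35S::ERF104 under flg22.

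**Figure D5:**
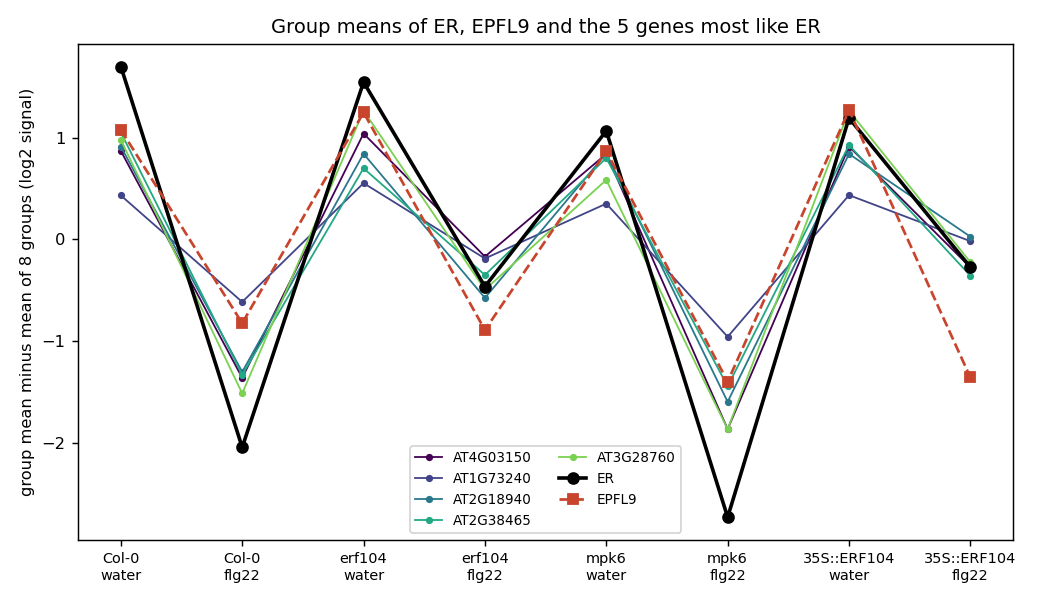
Group means of log2 signal, each less the mean of its 8 groups, for ER (black), EPFL9 (dashed red) and the 5 genes most like ER. ER dips deepest in Col-0 flg22 and mpk6 flg22, while EPFL9 is about as low in 35S::ERF104 flg22 as in mpk6 flg22.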

How the data were processed

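Per the series text, the authors analysed the arrays with Genespring GX 7.3.1; the method of probe summarisation was not given in the sources used here. The value table the authors deposited holds linear intensities, 1 for each of 22810 probe sets on each of 24 arrays. All are above 0, and the mean after trimming 2% at each end is about the same on every array. A second deposited table, exported by group, holds mean intensities and, as letters (unit other), the calls of present, marginal or absent seen in each group, per the file headers. Its group means match the value table within 0.1% for 86.1% to 99.7% of the probe sets, for erf104 flg22 without replicate 2. Calls per array are not used here.

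Tests ran on log2 intensity, without a pseudocount or a filter. The 64 control probe sets were dropped, which leaves 22746. Genes were matched by locus, as the authors' table gives it, and symbols come from the RefSeq gene table (TAIR10.1), where FAMA stands as FMA. The tool was limma 3.58.1 (R 4.3.3; lmFit, then eBayes with trend), p-values adjusted by Benjamini-Hochberg across the whole table and a threshold of 0.05. Each flg22 response was fitted on the arrays of its genotype, as the series text states, and genotype comparisons and differences of responses in 1 fit of 23 arrays. SE and 95% intervals are those of the fit, with limma's moderated variance. A probe set called absent in 1 group gets a bound: per array, the higher of its own signal and the lowest signal among probe sets called present on every array of that group. The number of arrays limits the precision.

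Members and lists were chosen with earlier results of these data known, so counts over a list are descriptions. Named besides the members were ERF104 and MPK6, up to 2 genes per direction of each pathway list past the threshold, and the 5 genes most like ER by Pearson's r. EPF1, EPF2 and MUTE were named for their roles and the markers that passed for their calls, after their values were seen. Whether replicate numbers pair the arrays is not stated, and the main fits did not use them. Of 33 same-numbered pairs, 5 had deviations from their group means that correlated above 0.1 (range −0.28 to 0.45), and in no comparison did all. For replicates 1, 2 and 3 the values were 0.20, 0.09 and 0.45 in mpk6 against Col-0 under flg22. In the mpk6 response they were 0.17, 0.06 and 0.36. A batch shared by arrays of the same number was not tested. Alternatives were quantile normalization, centring, no variance trend, log2(intensity + 16), a filter on calls, a replicate block, the fits of other arrays, array weights, the ANOVA of the series text with a change over 3-fold, and leaving out each array. The fits were tested on simulated data.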

Additional observations from a re-analysis of the deposited data

Results flagged for a closer look

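The array left out of all comparisons, erf104 flg22 replicate 2, was set beside the 12 water arrays. Of the 8 genes, 4 were higher there than on any water array: ERL1 at 920 (919.55; highest water array 387), ERL2 at 975 (161), SDD1 at 266 (150.1) and SPCH at 961 (282). They were called out because the signal lies outside the arrays used. On the same array 33.9% of all probe sets (7719) exceeded every water array. YDA, at 43.0, lay below the lowest of the water arrays (139), and ER, at 655, within their range.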

How the results depend on the processing

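The counts of members called in the tested comparisons depended on the processing as follows. The erf104 response (1 member, ER) had 0 without a variance trend, in 1 fit of 23 arrays, with all 24 arrays and by the ANOVA of the series text after adjustment; leaving out 1 array gave 0 to 1. The 35S::ERF104 response (2 members, ER and SPCH) had 0 in 1 fit of 23 arrays and by the ANOVA after adjustment, and 1 by the ANOVA before it, which drops ER for a change under 3-fold; the filter on calls kept the count at 2 with FAMA in place of SPCH; leaving out 1 array gave 1 to 2. For erf104 against Col-0 under water (1 member, SPCH) the count was 0 under quantile normalization, centring on medians, the filter on calls (which removes SPCH), all 24 arrays, array weights, a fit of only the groups compared and the ANOVA after adjustment; leaving out 1 array gave 0 to 1. Comparisons with no member called gained 1 (SPCH) by the ANOVA before adjustment for mpk6 against Col-0 under flg22, 2 (SDD1 and SPCH) by it for 35S::ERF104 against erf104 under water, and 1 (ER, which was picked for its low signal on these Col-0 arrays) with array weights for 35S::ERF104 against Col-0 under flg22. Leaving out 1 array gave 0 to 1 where 35S::ERF104 was set against Col-0, under water (ERL1) and under flg22 (ER). The cause was not tested. The described ER difference ran from −4.56 to −3.04 in Col-0 and from −4.81 to −3.20 in mpk6 as 1 array was left out. MKK5 in the erf104 response reversed with all 24 arrays (−0.089; limma adjusted p 0.971). Among values of single genes called in the main setting, 187 kept the call and 131 lost it. Among those of ER with no call there, 194 stayed without one and 2 gained it. With the replicate number as a block, the members called were 1, 2 and 1 as before and 0 elsewhere. Probe sets called rose from 100 to 235 for 35S::ERF104 against Col-0 under flg22, and from 1434 to 1913 for erf104 against Col-0 under water.

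Probe sets called in all moved more. The erf104 response had 2209, against 0 without a variance trend or with all 24 arrays, 672 in 1 fit, 2 by the ANOVA after adjustment and 396 to 2655 without single arrays. The 35S::ERF104 response had 4177, against 1740 without a trend, 860 in 1 fit and 366 by the ANOVA after adjustment. For erf104 against Col-0 under water the split was 626 higher and 808 lower, against 507 and 208 after quantile normalization and 2179 and 400 after centring; in all 1434 were called, 5 with all 24 arrays and 3725 without Col-0 water replicate 2. For 35S::ERF104 it was 532 and 800, against 469 and 124, and 2122 and 517; in all 1332, and 12 to 4100 without single arrays. Under flg22, 35S::ERF104 against Col-0 had 100 (0 to 1563 over the alternatives) and erf104 against Col-0 3 (0 to 371). Calls of absent on all arrays, 8 groups each for ERL2, SDD1 and SPCH, limit what these arrays can show of those genes.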
